A study of Mus musculus with 6 samples.

Results

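The AP-1 genes and *Atf3* examined here were 10 genes of the basic leucine zipper (bZIP) class, chosen by name from the 54532 genes of the deposited table. They were *Fos*, *Fosb*, *Fosl1* and *Fosl2* of the Fos family, *Jun*, *Junb* and *Jund* of the Jun family, and the related genes *Atf3*, *Maff* and *Batf*. All 10 had a row in the table. RNA-seq had been performed on ovarian granulosa cells (GCs) of female ICR mice, which were 3 weeks old and had all been primed with PMSG (5 IU), a horse gonadotropin that starts follicle growth. After 22 h they were injected with 120 mg/kg of cyclophosphamide (CTX), an alkylating chemotherapy drug that is activated in the liver, or with phosphate buffered saline (PBS) as the control, and the GCs were collected 6 h later. Each group held 3 samples, and each sample was a pool of the GCs of 3 mice. The comparison asked how transcript levels in GCs differed 6 h after CTX treatment.

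AP-1 is a family of dimers that Fos and Jun proteins form through their leucine zippers. Jun proteins pair with each other or with Fos proteins, whereas Fos proteins need a Jun partner to bind the AP-1 site TGACTCA. *Fos*, *Fosb*, *Jun*, *Junb* and *Atf3* are immediate-early genes, which are transcribed within minutes of growth factors, gonadotropins or stress because their promoters are read by factors already present in the cell, such as CREB and the serum response factor. In GCs, AP-1 proteins are known to respond to gonadotropins and to change in composition as the cells luteinise.

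The GC label was checked against 8 marker genes, among them *Fshr*, *Foxl2*, *Amh* and the inhibin subunit *Inha*, and all 8 were detected in each sample. Their summed level was between 10717 and 11860 FPKM (fragments per kilobase of gene and per depth of the sample, with the authors' own scaling between samples) after PBS and between 9604 and 10229 FPKM after CTX, and 5 of the 8 were lower and 1, *Amh*, was higher in each CTX sample than in each PBS sample. *Amh* was between 48.4 and 51.1 FPKM after PBS and was 54.3, 179 and 85.5 FPKM in CTX replicates 1, 2 and 3. The lower genes were *Fshr*, *Cyp19a1*, *Inha*, *Inhba* and *Foxl2*. Over all genes tested as described below, 15.0% had every CTX sample above every PBS sample, and 14.1% had every CTX sample below. *Cyp19a1* was between 59.2 and 62.4 FPKM after PBS and was 47.6, 6.61 and 32.5 FPKM in the same CTX samples. *Inhba* was between 754 and 902 FPKM after PBS, then 665, 211 and 487 FPKM after CTX. For *Foxl2* the levels were 184 to 193 FPKM after PBS and 145, 76.9 and 107 FPKM after CTX. None of the 8 was called in limma or voom, and 3 had an unadjusted p-value below 0.05, all downward. *Inha*, which made up most of the summed level, was between 8556 and 10402 FPKM. The reads on genes, rebuilt from FPKM and gene length, numbered between 16005869 and 18455011 per sample. CTX replicate 2 stood apart from the rest, at 74.7 on the first principal component (46.8% of the variance), where the other 5 samples lay between -26.6 and 13.2. Some of the changes that its omission moved are therefore given with and without it. The summed level of 10 leukocyte markers was between 18.1 and 21.0 FPKM after PBS and was 31.8, 59.9 and 22.6 FPKM in CTX replicates 1, 2 and 3. Of these 10, of which 4 were tested, 3 were higher in each CTX sample than in each PBS sample, *Lyz2*, *Cd68* and *Cd14*. None of the 10 was lower in each CTX sample. Whether 3 of 10 was more than among other genes was not tested. *Lyz2* was between 13.1 and 14.3 FPKM after PBS and was 22.9, 45.8 and 14.7 FPKM in CTX replicates 1, 2 and 3. *Cd68* was between 2.59 and 3.69 FPKM after PBS and was 4.26, 8.97 and 3.91 FPKM in those samples. The defining marker *Ptprc* was between 0.0640 and 0.0983 FPKM, and *Cd3e* was at 0 in 1 or more samples. The mean of *S100a8* was 0.648 FPKM after PBS and 0.293 FPKM after CTX. That of *Itgam* was 0.138 and 0.0886 FPKM, and that of *Ptprc* 0.0839 and 0.0792 FPKM. The groups overlapped for each of these. Of all these lists, limma called *Cd14* and the smooth muscle gene *Acta2*, both higher. With voom, 0 of the leukocyte markers were called. The sum of 4 endothelial markers was between 4.41 and 5.38 FPKM after PBS and between 1.78 and 4.05 FPKM after CTX. The sums of the theca and stroma list (50.4 to 53.7 FPKM after PBS, 26.6 to 65.2 FPKM after CTX) and of the oocyte list (27.1 to 55.5 FPKM and 36.2 to 66.7 FPKM) overlapped. A list of 7 heat-shock genes, which cell handling can raise, summed to between 453 and 472 FPKM after PBS and to between 609 and 654 FPKM after CTX. Of these 7, 5 were higher in each CTX sample than in each PBS sample, beside 15.0% of all genes tested. None was called with the test used below (limma), while 3 had an unadjusted p-value below 0.05, all upward, and voom called 0. *Hspa8*, a chaperone gene, was past the adjusted p-value but changed less than 2-fold (log2 fold change 0.52, limma adjusted p = 0.035). *Dnajb1*, a co-chaperone gene, was at 0.98 (limma adjusted p = 0.063) and was called higher without CTX replicate 2, at 1.18 (limma adjusted p = 0.0047). The part of these markers in the results below was not tested.

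All genes whose FPKM averaged 0.5 or more were tested with limma on log2(FPKM + 0.1), and a gene was called if its Benjamini-Hochberg adjusted p-value was below 0.05 and its change more than 2-fold. Of the 10 members, 9 reached that level. CTX treatment raised 7 of them, *Fos*, *Fosb*, *Jun*, *Junb*, *Jund*, *Atf3* and *Maff*, and 0 were called lower. Among all 14463 genes tested, 0.802% were called higher and 0.159% were called lower. The 2 others, *Fosl1* and *Fosl2*, did not pass, and *Batf* was under the filter. No member was lower with an unadjusted p-value below 0.05 in limma, and 0 were called lower with limma's voom. In each of the 7 called genes, the 3 CTX samples lay above the 3 PBS samples. Over all tested genes, 15.0% had every CTX sample above every PBS sample, and 14.1% had every CTX sample below. The share of all tested genes with an unadjusted p-value below 0.05 was not counted. The counts of such genes given for each list therefore have no background to be set against, and do not show an excess. The 9 tested members had a median log2 fold change of 1.78, against -0.01 for all genes tested. In bulk samples, a change in the number of cells of a type and a change in RNA per cell cannot be told apart.

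**Figure D1:**
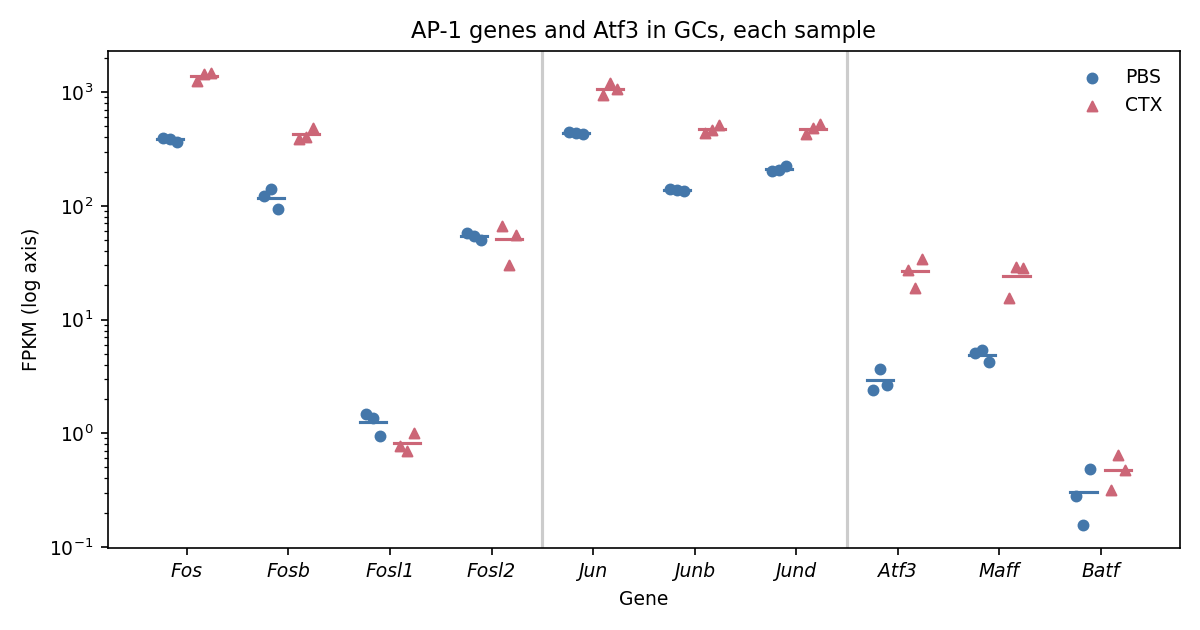
FPKM of the 10 genes (x axis, by family) on a log axis, with a point for each of 3 PBS samples (circles) and 3 CTX samples (triangles) and a bar at each group's mean. The groups do not overlap for *Fos*, *Fosb*, *Jun*, *Junb*, *Jund*, *Atf3* and *Maff*, and they overlap for *Fosl1*, *Fosl2* and *Batf*.

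The start regions of the members were searched for short motifs, and no test was made of them. RefSeq windows on GRCm38.p6, from 250 bases before to 50 bases after the start site, were matched for 9 of the 10 members (11 windows, 3 of them of *Maff*). They are printed 5′ to 3′ on the gene's strand, with the motifs found on either strand in capitals, for the 5 called genes that held any of them.
Fos (chr12:85473640-85473939, plus strand): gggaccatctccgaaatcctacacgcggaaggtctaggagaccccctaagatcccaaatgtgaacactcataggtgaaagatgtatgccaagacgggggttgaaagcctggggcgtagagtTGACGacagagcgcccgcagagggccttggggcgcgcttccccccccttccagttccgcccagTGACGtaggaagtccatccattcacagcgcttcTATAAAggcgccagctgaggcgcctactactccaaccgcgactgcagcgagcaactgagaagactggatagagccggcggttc
Fosb (chr7:19309996-19310295, minus strand): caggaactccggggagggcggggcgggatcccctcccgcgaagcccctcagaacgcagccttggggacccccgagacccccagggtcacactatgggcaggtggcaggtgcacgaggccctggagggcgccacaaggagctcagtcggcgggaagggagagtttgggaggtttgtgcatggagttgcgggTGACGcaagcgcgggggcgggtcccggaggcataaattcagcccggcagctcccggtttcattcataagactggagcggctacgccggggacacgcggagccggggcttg
Junb (chr8:84978699-84978998, minus strand): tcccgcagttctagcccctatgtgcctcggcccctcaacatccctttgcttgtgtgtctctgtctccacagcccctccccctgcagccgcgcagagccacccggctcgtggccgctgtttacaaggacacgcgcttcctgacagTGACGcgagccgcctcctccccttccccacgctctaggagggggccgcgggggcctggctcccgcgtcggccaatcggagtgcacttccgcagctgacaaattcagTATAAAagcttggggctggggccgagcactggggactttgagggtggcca
Atf3 (chr1:191183284-191183583, minus strand): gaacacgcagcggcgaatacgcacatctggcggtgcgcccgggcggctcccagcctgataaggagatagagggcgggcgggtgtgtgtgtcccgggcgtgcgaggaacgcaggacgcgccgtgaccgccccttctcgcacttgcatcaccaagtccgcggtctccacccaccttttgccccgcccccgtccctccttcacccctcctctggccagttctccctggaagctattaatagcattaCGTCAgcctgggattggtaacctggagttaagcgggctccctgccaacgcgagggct
Maff (chr15:79347270-79347569, plus strand): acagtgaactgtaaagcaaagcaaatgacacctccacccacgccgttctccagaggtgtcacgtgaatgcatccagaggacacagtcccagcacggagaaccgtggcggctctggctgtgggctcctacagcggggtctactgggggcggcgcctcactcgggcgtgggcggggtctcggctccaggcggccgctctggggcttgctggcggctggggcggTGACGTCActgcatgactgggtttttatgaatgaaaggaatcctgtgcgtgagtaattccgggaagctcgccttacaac
The capitals mark TGACG, the core of the cAMP response element (CRE) that CREB and ATF proteins read, the full palindrome TGACGTCA, and TATAAA, the TATA box. The core TGACG, or its complement CGTCA, was found in 7 of the 11 windows, and in 20.8% of 32851 RefSeq windows of the same length. The 7 were those of the 5 genes printed, another of *Maff* (122 bases before its start site) and that of *Batf*, which was under the filter. The windows of the called genes *Jun* and *Jund* held none of the motifs searched, nor did that of *Fosl2*. In *Fos* it began 129 and 66 bases before the start site, in *Fosb* 60 bases before and in *Junb* 106 bases before. In *Atf3* it ended 3 bases before the start site. The full TGACGTCA, which contains the core on both strands, was found in *Maff* alone among the 9, 29 bases before the start site of the printed window, and in 1.79% of all windows. TATAAA was found in *Fos*, 33 bases before the start site, and in *Junb*, at the RefSeq start site itself, which lies 30 bases upstream of the gene's 5′ end in the deposited table. It was found in 13.6% of all windows. The AP-1 site TGACTCA (5.20% of all windows) and the CArG box of the serum response factor (1.63%) were found in 0 of the members' windows, which says only that these letters were not in these 300 bases. The *Atf3* window is at a start site 34706 bases inside the gene as the table spans it, the *Jund* window lies 1210 bases upstream of the table's gene, and the start site of the printed *Maff* window lies 899 bases inside the gene of the table. These windows therefore do not show the 5′ ends used for counting.

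Among the Fos genes, *Fos* and *Fosb* rose, to 3.61 and 3.60 times their PBS means, while *Fosl1* and *Fosl2* were not called. *Fos* (ENSMUSG00000021250, chromosome 12, 85473890 to 85477273, plus strand, 4 exons) encodes c-Fos, a main partner of c-Jun. Its level was 393, 390 and 368 FPKM in PBS replicates 1, 2 and 3, and 1247, 1445 and 1462 FPKM in CTX replicates 1, 2 and 3. Every CTX sample was thus far above every PBS sample, and the PBS samples were close to each other. The log2 fold change was 1.85 (standard error, SE, 0.10, 95% interval 1.60 to 2.09, limma adjusted p = 0.0010). By mean FPKM, *Fos* moved from place 82 to place 11 among all 54532 genes of the table.

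*Fosb* (ENSMUSG00000003545, chromosome 7, 19302696 to 19310051, minus strand, 4 exons) encodes FosB, which is made in a full-length and a shortened form that gene-level values do not separate. Its level was 121, 140 and 93.1 FPKM after PBS and 386, 402 and 486 FPKM after CTX. The PBS samples were more spread than those of *Fos*, but no CTX sample came near them. In the fit it had a log2 fold change of 1.86 (SE 0.17, limma adjusted p = 0.0052).

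*Fosl2* (ENSMUSG00000029135, chromosome 5, 32135801 to 32157842, plus strand, 4 exons) encodes Fra-2, a Fos protein without the strong activation domain of c-Fos. Its level was 57.5, 54.7 and 50.5 FPKM after PBS and 65.8, 30.2 and 55.9 FPKM after CTX. CTX replicate 1 was the highest sample and CTX replicate 2 the lowest, so that the groups overlapped. The log2 fold change was -0.17 (95% interval -0.84 to 0.50, limma adjusted p = 0.75), an interval that lies below the fold change of *Fos*. Without CTX replicate 2 it was 0.16. That sample also had the lowest summed theca and stroma (26.6 FPKM) and endothelial (1.78 FPKM) markers, and their part in its *Fosl2* level was not tested. *Fosl1* (ENSMUSG00000024912, chromosome 19, 5447703 to 5455945, plus strand, 4 exons), which encodes Fra-1, was the lowest Fos gene. It had 45, 43 and 26 rebuilt reads after PBS and 24, 21 and 31 after CTX. These reads corresponded to 1.48, 1.37 and 0.940 FPKM and to 0.776, 0.693 and 1.01 FPKM. Its groups overlapped, and its log2 fold change was -0.55 (95% interval -1.15 to 0.05, limma adjusted p = 0.28).

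The 3 Jun genes were called higher, and each has a single exon. *Jun* (ENSMUSG00000052684, chromosome 4, 95049034 to 95052222, minus strand) encodes c-Jun, the main target of the JNK kinases. Its level was 441, 441 and 431 FPKM after PBS and 937, 1214 and 1059 FPKM after CTX. The PBS samples differed by little, and CTX replicate 2 was the highest. For *Jun* the log2 fold change was 1.28 (SE 0.12, 95% interval 1.00 to 1.56, limma adjusted p = 0.0052). Without PBS replicate 1 the limma adjusted p-value was 0.052 and the call was lost, at a log2 fold change of 1.29. The antisense gene *Junos*, which overlaps *Jun* by 689 bases, had at most 23 rebuilt reads in any sample.

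*Junb* (ENSMUSG00000052837, chromosome 8, 84974484 to 84978718, minus strand) encodes a Jun protein that can hold back c-Jun. It had 140, 137 and 136 FPKM after PBS and 440, 465 and 515 FPKM after CTX. Both groups were tight and well apart. Its log2 fold change was 1.78 (SE 0.08, limma adjusted p = 8.2e-04), the lowest adjusted p-value among the members. *Prdx2* overlaps *Junb* by 351 bases on the other strand, and its level overlapped between the groups (146 to 167 FPKM after PBS, 118 to 170 FPKM after CTX). The library kit and the sources used here do not say that strand was counted, so reads in that overlap could not be told apart.

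*Jund* (ENSMUSG00000071076, chromosome 8, 70698949 to 70700616, plus strand) encodes a Jun protein that most resting cells make and that is often linked to quiescence. It had 202, 208 and 224 FPKM after PBS and 428, 480 and 522 FPKM after CTX. The groups did not overlap, although its rise was the smallest of the called members. It had a log2 fold change of 1.17 (SE 0.10, 95% interval 0.93 to 1.41, limma adjusted p = 0.0041).

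**Figure D2:**
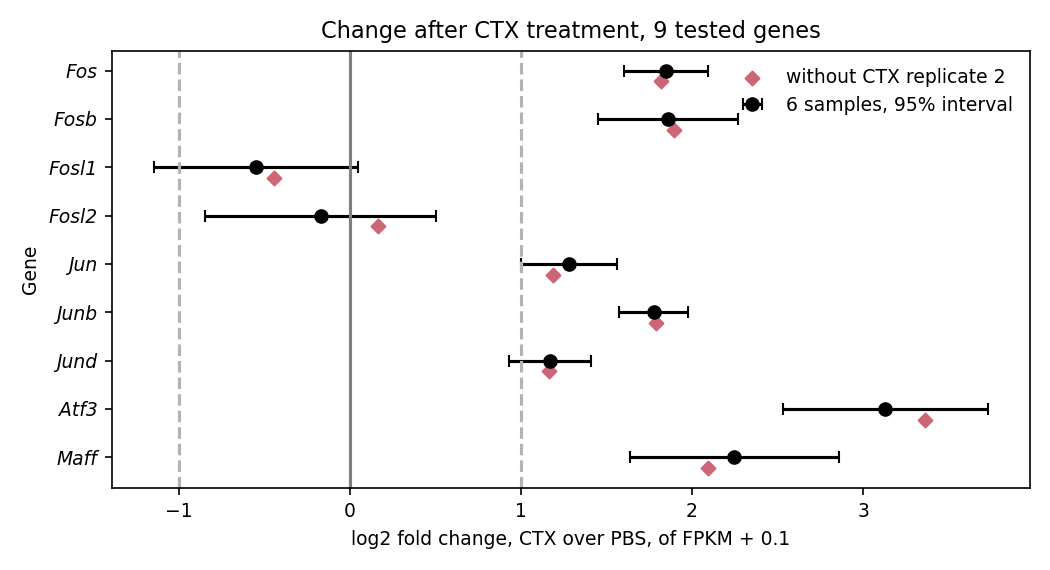
log2 fold change of CTX over PBS (x axis, FPKM + 0.1) for the 9 tested genes (y axis). Black points with bars are the limma estimates from 6 samples with 95% intervals, diamonds the estimates without CTX replicate 2, and dashed lines mark a 2-fold change. *Atf3* is highest at 3.13, and *Fosl2* crosses 0 from -0.17 to 0.16 without that sample.

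*Atf3* had the largest change of the members, from a low starting level. *Atf3* (ENSMUSG00000026628, chromosome 1, 191170296 to 191218039, minus strand, 4 exons) encodes a bZIP protein that acts as a repressor as a homodimer, pairs with Jun proteins, and is raised by DNA damage and by the integrated stress response. Its level was 2.42, 3.67 and 2.67 FPKM after PBS and 27.1, 18.8 and 34.1 FPKM after CTX. CTX replicate 2 was the lowest treated sample but was still well above each PBS sample. The ratio of the group means was 9.14. The log2 fold change was 3.13 (SE 0.25, 95% interval 2.53 to 3.73, limma adjusted p = 0.0034), place 12 among the 14463 tested genes in order of log2 fold change. Without CTX replicate 2 it was 3.36.

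*Maff* (ENSMUSG00000042622, chromosome 15, 79346621 to 79359076, plus strand, 3 exons) encodes a small Maf protein, which has no activation domain and pairs with itself or with CNC proteins such as NRF2. Its level was 5.10, 5.36 and 4.19 FPKM after PBS and 15.6, 29.1 and 28.3 FPKM after CTX. CTX replicate 1 was the lowest treated sample, and the groups did not overlap. Its log2 fold change was 2.25 (SE 0.25, limma adjusted p = 0.012). The call was lost without PBS replicate 1, PBS replicate 2, PBS replicate 3 or CTX replicate 3, where the limma adjusted p-values were 0.080, 0.066, 0.088 and 0.064 and the log2 fold change lay between 2.11 and 2.32. *Batf* (ENSMUSG00000034266, chromosome 12, 85686669 to 85709087, plus strand, 3 exons), a bZIP gene used mainly by lymphocytes, had 7, 4 and 11 rebuilt reads after PBS and 8, 16 and 12 after CTX. These were 0.279, 0.155 and 0.483 FPKM and 0.314, 0.641 and 0.476 FPKM, and the groups overlapped. With no filter its log2 fold change was 0.55 (limma adjusted p = 0.64).

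FPKM is per length, so levels of different members can be set side by side, though only roughly. The length is 1 value per gene (1406 to 9680 bases among the members), whichever transcript was expressed. After PBS the order of the mean levels was *Jun* (438 FPKM), *Fos* (384), *Jund* (211), *Junb* (138), *Fosb* (118), *Fosl2* (54.2), *Maff* (4.89), *Atf3* (2.92), *Fosl1* (1.26) and *Batf* (0.306). *Junb* and *Fosb* overlapped between samples in this order, since 1 PBS sample of *Fosb* was at 140 FPKM. After CTX it was *Fos* (1385 FPKM), *Jun* (1070), *Jund* (477), *Junb* (473), *Fosb* (425), *Fosl2* (50.7), *Atf3* (26.7), *Maff* (24.3), *Fosl1* (0.828) and *Batf* (0.477). *Fos* thus moved ahead of *Jun*. Samples of *Jund*, *Junb* and *Fosb* overlapped with each other after CTX, as did those of *Atf3* and *Maff* and of *Atf3* and *Fosl2*, while those of *Fos* and *Jun* did not.

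The summed level of the Fos genes was 573, 586 and 512 FPKM after PBS and 1700, 1878 and 2005 FPKM after CTX. That of the Jun genes was 784, 785 and 791 FPKM after PBS and 1804, 2159 and 2096 FPKM after CTX. The ratio of the Fos sum to the Jun sum was between 0.648 and 0.747 after PBS and between 0.870 and 0.956 after CTX. Within the Fos sum, *Fosl2* took 9.33% to 10.03% of each PBS sample and 1.61% to 3.87% of each CTX sample. *Fos* took 66.6% to 71.8% and 72.9% to 76.9%. Within the Jun sum, *Junb* took 17.2% to 17.9% of each PBS sample and 21.5% to 24.6% of each CTX sample, while *Jun* took 54.4% to 56.3% and 50.5% to 56.2%.

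**Figure D3:**
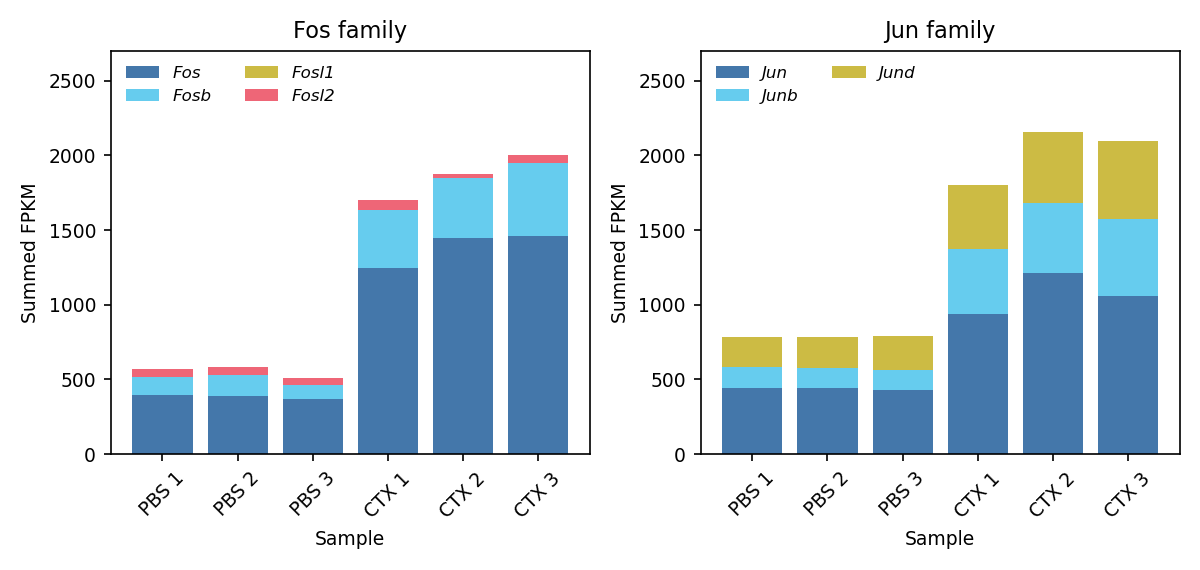
Summed FPKM (y axis) of the Fos genes (left) and of the Jun genes (right) in each of the 6 samples (x axis), with each gene's part in its own colour. Sums lay between 512 and 791 FPKM in PBS samples and between 1700 and 2159 FPKM in CTX samples, and *Fosl2* took at most 3.87% of the Fos sum after CTX.

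Whether members of a family changed unequally was compared through the log2 ratio of each pair within a sample, over 9 pairs. With 3 samples against 3, the two-sided exact permutation test cannot go below p = 0.10, and an adjusted value over the 9 pairs cannot pass 0.05. The ratio of *Fos* to *Fosb* was 1.72 ± 0.25 after PBS and 1.71 ± 0.13 after CTX on the log2 scale (mean ± SD, n = 3, exact permutation p = 0.90). The ratio of *Fos* to *Fosl2* went from 2.82 ± 0.05 to 4.84 ± 0.68, a difference of 2.02, or 1.65 without CTX replicate 2 (n = 3, exact permutation p = 0.10, adjusted p = 0.15). That of *Fos* to *Fosl1* differed by 2.40 between the groups with the same p-values. Among the Jun genes, the ratio of *Junb* to *Jund* went from -0.62 ± 0.10 to -0.01 ± 0.04, a difference of 0.61 (n = 3, exact permutation p = 0.10, adjusted p = 0.15). That of *Jun* to *Junb* differed by -0.50 (exact permutation p = 0.10, adjusted p = 0.15) and that of *Jun* to *Jund* by 0.11 (exact permutation p = 0.40, adjusted p = 0.45). In 6 of the 9 pairs the ratios of the groups did not overlap, an outcome with an exact permutation p = 0.10 for each pair. The pairs share members, and those of *Fos* or *Fosb* with *Fosl1* or *Fosl2* restate the calls given above. The share over other gene pairs was not counted.

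The profile nearest to that of *Fos* among the members was that of *Junb*, by the root mean square difference of 0.07 over 6 samples on the log2(FPKM + 0.1) scale after subtracting each gene's PBS mean. Outside the members the nearest were *Klf11* (0.07), *Hes1* (0.11), *Klf2* (0.14), *Klf6* (0.15) and *Zfp36* (0.17), 4 of them transcription factors and *Zfp36* a factor in mRNA decay. The nearest to *Atf3* were *Svop* (0.21), *Egr2* (0.21), *Eda2r* (0.26), *Bbc3* (0.28) and *Ano3* (0.30). *Eda2r* and *Bbc3* are known p53 targets. *Svop* and *Ano3* had mean levels of 0.0205 and 0.0678 FPKM after PBS, below the pseudocount of 0.1, so their place depends on it. The nearest member to *Atf3* was *Maff*, at 0.77.

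Other bZIP genes pair with AP-1 proteins or read related sites. Of a list of 16, 14 were tested, 1 was called higher and 0 were called lower in limma, and 4 had an unadjusted p-value below 0.05, all of them higher in CTX. Their median log2 fold change was 0.10. Whether 4 of 14 was more than among other genes was not tested. limma's voom also called 1. *Mafk*, a small Maf gene like *Maff*, was the gene called. It had 8.52, 7.93 and 7.66 FPKM after PBS and 17.4, 36.8 and 30.1 FPKM after CTX, with CTX replicate 1 lowest of the treated samples. Its log2 fold change was 1.73 (limma adjusted p = 0.034). The call was lost without PBS replicate 1, PBS replicate 2, PBS replicate 3 or CTX replicate 3 (limma adjusted p up to 0.17). The largest changes that did not pass were those of *Cebpd* (1.04, limma adjusted p = 0.17) and *Mafa* (0.98, limma adjusted p = 0.31). *Mafa* had 5.34, 21.9 and 10.05 FPKM after CTX, against 4.57 to 6.69 FPKM after PBS, and was at 0.45 without CTX replicate 2. *Cebpd* was called without CTX replicate 2, at 1.40 (limma adjusted p = 0.011). *Cebpb* moved from 0.01 to 0.37 without that sample and was not called in either fit. The AP-1 inhibitor *Jdp2* was at 0.76 (limma adjusted p = 0.082) and the CRE-binding *Creb1* at -0.22 (limma adjusted p = 0.29), and neither was called.

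The upstream list held MAP kinases, the kinases that activate them, and the serum response factor with its partners. Of 22 symbols, 20 were in the table and 19 were tested. The symbols not found, *Mrtfa* and *Mrtfb*, are other names of *Mkl1* and *Mkl2*, which were tested. In limma 0 were called, and 5 had an unadjusted p-value below 0.05, 3 upward and 2 downward. With voom, 0 were called. The median log2 fold change was -0.004. The largest changes that did not pass were those of *Srf* (0.76, limma adjusted p = 0.087), the JNK gene *Mapk10* (0.69, limma adjusted p = 0.32) and the co-factor *Elk3* (0.37, limma adjusted p = 0.38). Without CTX replicate 2, the highest sample for both, *Mapk10* was at 0.35 and *Elk3* at 0.12. *Srf*, the serum response factor, had 22.8, 25.9 and 24.5 FPKM after PBS and 31.9, 45.9 and 47.8 FPKM after CTX, so that its groups did not overlap. These kinases are controlled by phosphorylation, which RNA-seq does not measure.

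Of 20 textbook AP-1 target genes, 12 were tested. In limma 1 was called higher and 1 lower, and 7 had an unadjusted p-value below 0.05, 3 higher and 4 lower. limma's voom called 0. The median log2 fold change was -0.11. The matrix metalloproteinase genes *Mmp3*, *Mmp9*, *Mmp10* and *Mmp13* were all under the filter, and *Mmp3* had no read in any sample. *Lif*, a cytokine gene, had 0.284, 0.326 and 0.312 FPKM after PBS and 2.60, 1.01 and 2.43 FPKM after CTX, with a log2 fold change of 2.27 (limma adjusted p = 0.047). *Mt2*, a metallothionein gene, had 1.53, 1.67 and 1.26 FPKM after PBS and 0.469, 0.288 and 0.190 FPKM after CTX, which rested on 16, 18 and 12 reads and on 5, 3 and 2 reads, with a log2 fold change of -1.98 (limma adjusted p = 0.042). Neither had overlapping groups. The call of *Lif* remained in 1 of 6 fits that left out a sample, the one without CTX replicate 2 (log2 fold change 2.68). That of *Mt2* remained in 2 of 6, those without CTX replicate 1 or CTX replicate 2. *Spp1*, the gene of osteopontin, was at -2.75 (limma adjusted p = 0.22) and was called lower without CTX replicate 2, at -1.49 (limma adjusted p = 0.018). *Ptgs2*, the prostaglandin synthase of ovulation, was at -1.41 (limma adjusted p = 0.18) and *Timp1*, a metalloproteinase inhibitor, at -1.23 (limma adjusted p = 0.22). CTX replicate 2 was the lowest sample for both, and without it *Ptgs2* was at -0.96 and *Timp1* at -0.69.

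The integrated stress response, in which ATF4 raises *Atf3* and *Ddit3*, was described through 11 genes, of which 9 were tested. In limma 2 were called higher and 0 lower, 4 had an unadjusted p-value below 0.05, all of them upward, and voom called 2. The median log2 fold change was 0.34. The called genes were *Sesn2*, which is also a p53 target (2.04, limma adjusted p = 0.0040), and *Ppp1r15a*, which ends the response by dephosphorylating eIF2α (1.25, limma adjusted p = 0.0010). *Ddit3* (0.81, limma adjusted p = 0.031) and *Atf4* (0.53, limma adjusted p = 0.035) were past the adjusted p-value in limma but changed less than 2-fold, and *Asns* was at 0.34 (limma adjusted p = 0.41), or 0.11 without CTX replicate 2. *Trib3*, a gene of the ATF4 and CHOP branch, was at -0.31 (limma adjusted p = 0.54) and was not called, and *Chac1* was under the filter.

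**Figure D4:**
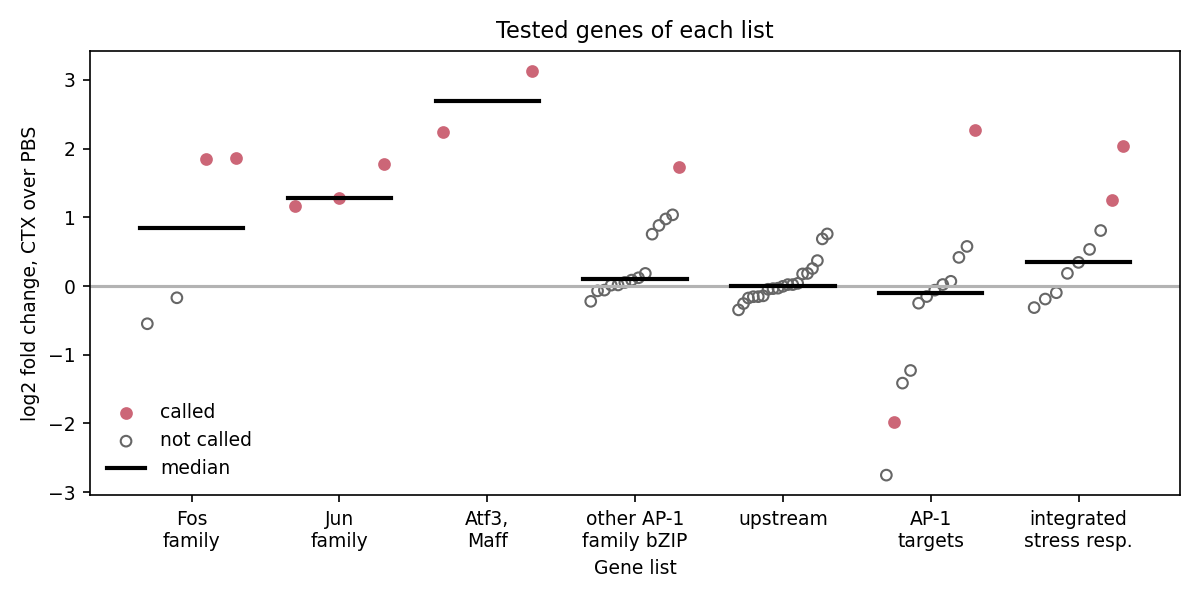
log2 fold change of CTX over PBS (y axis) of the tested genes of each list (x axis), sorted within a list. Filled points passed the test, open points did not, and bars are list medians. The medians of the upstream and AP-1 target lists lie at -0.004 and -0.11, and the Jun genes all lie above 1.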

How the data were processed

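RNA-seq was measured in 3 PBS and 3 CTX samples of GCs, grouped by their labels. The authors deposited FPKM values, which carry their own scaling between samples. Per the labels, the processing notes name CASAVA 1.8, fastp, HISAT2 2.0.5, featureCounts 1.5.0-p3 and DESeq2 1.20.0 and the build mm10 (GRCm38), without their order or settings. Other deposited columns hold, for each group, the authors' mean normalized signal, and their log2 fold change and their p-value and adjusted p-value, and none of these was used. Multiplied by gene length, 100% of the values above 0 came out as whole read numbers (tolerance 0.01 reads), here called rebuilt reads. On a gene of 1 kb, 3 reads were worth 0.164 to 0.185 FPKM, and such limits cover counting error only. Exon numbers are those of the longest protein-coding transcript in GENCODE M21.

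The linear models of limma 3.58.1 (trended eBayes, R 4.3.3) were fitted to genes averaging 0.5 FPKM or more on log2(FPKM + 0.1), a scale that understates the change of low genes. p-values were adjusted by Benjamini-Hochberg over all 14463 genes, with calls as defined above (threshold 0.05 and over 2-fold). The fit was tested on simulated data. Tables and figures were made with Python 3.11.15, pandas 2.3.3, SciPy 1.17.1 and matplotlib 3.10.9. The members and lists were chosen with earlier results of these data known, so list counts are descriptions. Genes are named if they are members, if they were called in a list, if they are among the 3 largest other changes in a list, or if their profile was among the 5 nearest to *Fos* or *Atf3*. *Jdp2*, *Creb1*, *Cebpb*, *Trib3*, *Chac1*, *Hspa8*, *Dnajb1*, *Amh*, *Cyp19a1*, *Inhba*, *Foxl2*, *Lyz2*, *Cd68*, *Cdh5* and the *Mmp* genes were named after their values were seen. Both groups carry replicate numbers 1 to 3 in the labels, but each sample held other mice. The alternatives were other pseudocounts, filters and scalings, a block on the replicate number, arrayWeights, no trend, voom on the rebuilt reads, no fold threshold, and each sample left out. Protein sequences were not analysed here. Some genes that the naming rule would include are not reported here.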

Additional observations from a re-analysis of the deposited data

How the results depend on the processing

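Of the 10 members, the 7 called genes were also called with the other pseudocounts, filters and scalings, with arrayWeights, without the trend, with voom and with no fold threshold. When single samples were omitted, between 5 and 7 members were called higher and 0 lower. Fos, Junb and Jund were called under every alternative run. With the replicate block, 3 were called higher, and the correlations of same-numbered samples (0.056, 0.024 and 0.006) did not show that the number pairs them. The log2 fold change of Fosl2 turned to 0.028 with arrayWeights and to 0.16 without CTX replicate 2, and lay between -0.40 and 0.16 when a sample was omitted. The number of other AP-1 family genes called, 1, was 0 with no filter, with the replicate block and without the trend, 2 with arrayWeights, and from 0 to 2 when a sample was left out. The number of AP-1 targets called, 2, was 1 with pseudocount 0.01, with quantile normalization, with scaling to the sum per sample and without the trend. It was 0 with pseudocount 1, with no filter, at a mean FPKM of at least 5, with voom and with the replicate block, 4 with arrayWeights, and from 0 to 3 when a sample was left out. The number of integrated stress response genes called, 2, was 4 with no fold threshold, which by construction adds Atf4 and Ddit3, 3 with arrayWeights, which adds Ddit3, and 2 in each fit that left out a sample. For the other changes the cause was not tested. The upstream genes called numbered 0 under every alternative run. At this depth, Batf and Fosl1 had at most 16 and 45 reads in any sample, which limits what could be detected for them. Over all genes, 116 were called higher and 23 lower, against 48 and 2 with the replicate block, 366 and 291 with arrayWeights (whose weights did not converge), 86 and 7 at a mean FPKM of at least 5, 202 and 52 with no fold threshold, and from 57 to 143 and from 1 to 70 when a sample was omitted. Scaling to the sum per sample moved the median of all tested genes to -0.08.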
